A study of Mus musculus with 11 samples.

Results

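The immediate early and feedback genes described here are 40 mouse genes, taken by symbol from the 19933 genes that the arrays could name. They fall into 9 groups by role: 8 AP-1 and maf factors, 6 EGR and NR4A factors, 4 KLF factors and Myc, 3 Ier genes, 4 dual-specificity phosphatases, 5 genes of RNA decay and antiproliferation, 3 genes of the NF-kB pathway, 3 stress genes, and 3 genes of G protein signalling and the clock. All 40 were found, each with 1 probe set, and 34 of them exceeded the array median (over all probe sets) on each of the 11 arrays. From Pre MegE to CFU-E, the ends of the erythroid course measured here, 37 of the 38 genes tested were lower (35.1% of all genes were, and 76.6% changed in either direction). In splenic dendritic cells (DC) 37 of the 40 were higher than in the progenitors (25.3% of all genes were, and 89.9% differed in either direction). Between KO and WT DC 2 of the 40 differed past 1.5-fold (2.53% of all genes did).

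Immediate early genes are transcribed within minutes of a stimulus, without new protein synthesis, by factors that already sit in the cell, such as SRF with its ETS partners, CREB and NF-kB. Many of their products then shut the signal down: dual-specificity phosphatases act on MAP kinases, the Zfp36 proteins bring about decay of AU-rich messengers, Nfkbia and Tnfaip3 curb NF-kB, and Rgs proteins curb G protein signalling. Mechanical handling, warm enzymatic digestion and sorting are known to induce the same genes in many tissues.

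KO mice carried the gfp allele of Zbtb46 on both chromosomes (Zbtb46gfp/gfp), Het mice on 1 (Zbtb46 gfp/+), and WT mice on neither (Zbtb46+/+). All had the C57Bl/6 background and were studied at steady state, while age and sex are not stated. CD4+ DC (B220- CD11c+ MHCII+ CD8- CD172+ CD11b+ CD4+) came from the spleen of KO and WT mice, and lineage-negative CD117+ progenitors of 3 stages (Pre MegE, then Pre CFU-E, then CFU-E) came from the marrow of KO, Het and WT mice, with 1 array for each genotype and cell type. Pre MegE cells still have megakaryocytic and erythroid potential, Pre CFU-E cells follow them on the erythroid side, and CFU-E cells are committed to red cell formation. Marrow was obtained by crushing the bones, passed over a density gradient and cleared of red cells by lysis, whereas the preparation of the spleen is not described in the sources used here. It is not stated whether 1 mouse gave several stages, so p-values measure only the spread between these arrays, and the number of arrays limits the precision.

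Zbtb46, the targeted gene, read 8.02 in KO DC, against 9.67 in WT DC, on the log2 intensity scale used throughout. In progenitors it read 7.71 (KO), 7.67 (Het) and 7.52 (WT) at Pre MegE, 7.71 (KO), 8.30 (Het) and 8.14 (WT) at Pre CFU-E, and 7.51 (KO), 8.62 (Het) and 8.87 (WT) at CFU-E, so the KO array was the lowest at the later stages but not at Pre MegE. Its probe set was not placed relative to the disrupted part of the gene. Array medians lay between 195.66 and 218.37 intensity units, but the upper quartile was 604.8 in KO DC and 641.4 in WT DC, against 967.6 to 1009.3 in progenitors. The identical value stood on at least 2 of the 3 arrays of a stage for 12.5% of the genes at Pre CFU-E, including 8 of these genes, against 2.6% at Pre MegE and 3.4% at CFU-E, so that such genes show no spread between those arrays. All 7 markers of classical DC and all 5 of CD4+ DC were above the array median on both DC arrays, and so were all 4 macrophage markers, while none of the 4 neutrophil markers was. Erythroid markers with a probe set (7 of 10 listed) were above the median on all 9 progenitor arrays, and so were all 4 neutrophil markers.

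**Figure D1:**
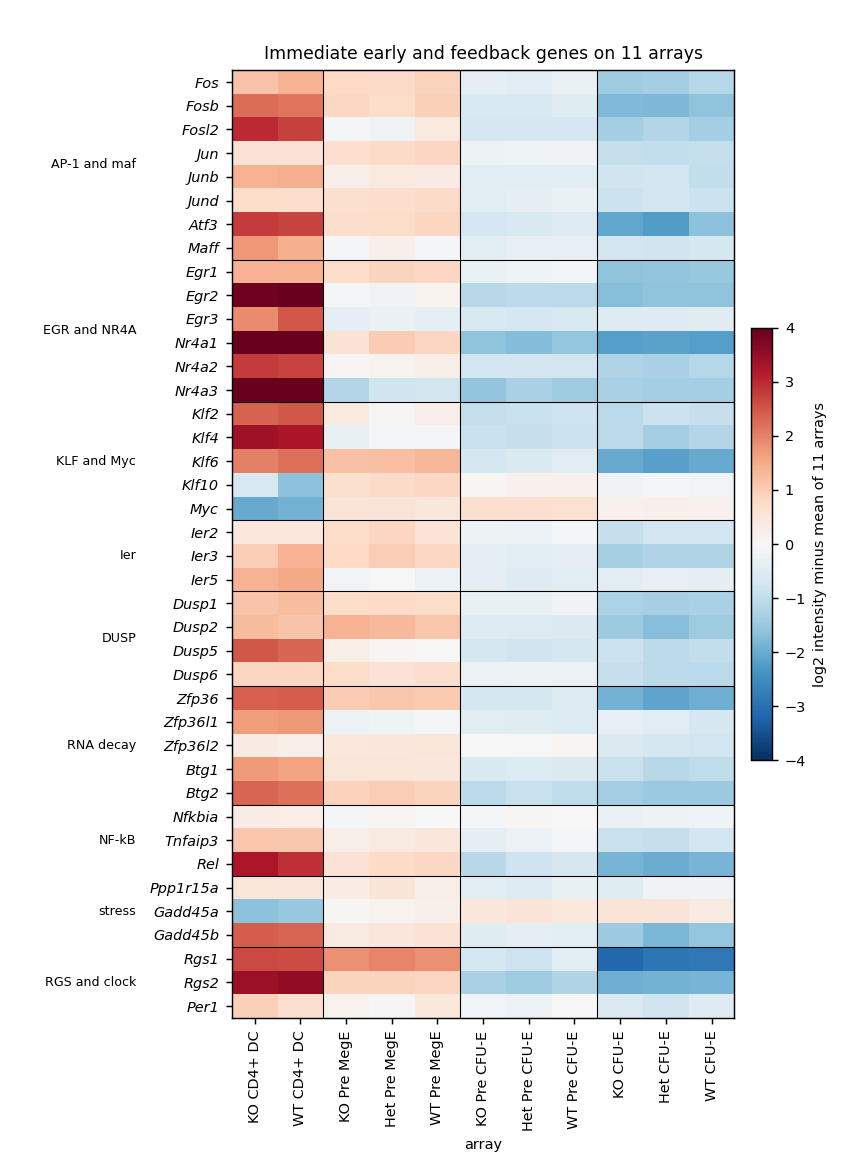
Each row is 1 of the 40 genes, grouped by role, and each column 1 of the 11 arrays; the colour is the log2 intensity minus that gene's mean over the 11 arrays, with differences beyond 4 drawn at the end of the scale. Most rows run from red in KO and WT DC over pale red in Pre MegE to blue in CFU-E, and Klf10, Myc and Gadd45a are blue in DC.

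The sequence just upstream of these genes was set beside their RNA levels, because most of them moved together. The 250 bases before the gene start were read for 33 of the 40 genes from the RefSeq promoter table (build GRCm38.p6). They were searched on both strands for the cyclic AMP response element TGACGTCA, its half-site TGACG (which the full element contains), the AP-1 site TGANTCA, the EGR site GCGNGGGCG, the serum response element (CArG box) and the NF-kB site. In all, 6 of the regions are shown, 5′ to 3′ on the strand of the gene, with full-length matches other than the half-site in capitals. Fos, Nr4a1, Zfp36, Btg2 and Dusp1 stand for genes that fell with stage, and Gadd45a is the gene that rose over the span.
Fos: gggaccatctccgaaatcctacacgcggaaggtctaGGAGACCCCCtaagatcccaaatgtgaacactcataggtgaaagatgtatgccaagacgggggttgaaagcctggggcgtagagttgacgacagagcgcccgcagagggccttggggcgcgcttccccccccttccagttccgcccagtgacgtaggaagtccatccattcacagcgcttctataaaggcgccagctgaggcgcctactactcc
Nr4a1: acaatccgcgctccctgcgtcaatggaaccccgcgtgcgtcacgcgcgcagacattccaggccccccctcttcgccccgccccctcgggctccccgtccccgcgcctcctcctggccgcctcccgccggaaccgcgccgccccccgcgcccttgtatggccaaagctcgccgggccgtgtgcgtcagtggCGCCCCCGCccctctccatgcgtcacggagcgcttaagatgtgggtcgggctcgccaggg
Zfp36: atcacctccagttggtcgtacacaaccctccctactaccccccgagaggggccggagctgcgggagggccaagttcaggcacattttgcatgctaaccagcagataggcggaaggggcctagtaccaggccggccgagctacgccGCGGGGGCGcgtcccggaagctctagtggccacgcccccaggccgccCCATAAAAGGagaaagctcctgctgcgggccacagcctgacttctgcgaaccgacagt
Btg2: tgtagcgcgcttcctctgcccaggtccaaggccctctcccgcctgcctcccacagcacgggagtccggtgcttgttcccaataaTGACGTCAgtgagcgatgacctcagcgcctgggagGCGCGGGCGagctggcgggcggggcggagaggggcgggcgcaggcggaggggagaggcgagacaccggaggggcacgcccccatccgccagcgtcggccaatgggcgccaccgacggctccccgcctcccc
Dusp1: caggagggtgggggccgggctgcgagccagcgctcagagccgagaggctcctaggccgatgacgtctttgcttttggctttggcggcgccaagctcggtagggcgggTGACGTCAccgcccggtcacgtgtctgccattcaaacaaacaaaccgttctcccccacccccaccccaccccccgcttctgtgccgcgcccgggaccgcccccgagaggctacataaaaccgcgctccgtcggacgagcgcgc
Gadd45a: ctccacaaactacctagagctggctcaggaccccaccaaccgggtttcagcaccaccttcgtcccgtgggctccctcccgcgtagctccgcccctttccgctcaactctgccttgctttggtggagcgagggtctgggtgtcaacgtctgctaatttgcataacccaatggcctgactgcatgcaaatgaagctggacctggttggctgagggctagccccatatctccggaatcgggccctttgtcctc
The Fos region (chr12:85473640-85473889, plus strand) held an NF-kB site from -214 to -205, counted back from the gene start. The Nr4a1 region (chr15:101266596-101266845, plus strand) held an EGR site from -60 to -52. In Zfp36 (chr7:28379229-28379478, minus strand) the capitals mark an EGR site from -105 to -97 and a CArG box from -58 to -49. The Btg2 region (chr1:134079156-134079405, minus strand) held the full cyclic AMP response element from -166 to -159 and an EGR site from -131 to -123, and the Dusp1 region (chr17:26508473-26508722, minus strand) held the full element from -143 to -136. No full-length match lay in the Gadd45a region (chr6:67037408-67037657, minus strand), which says only that these letters are not in that window.

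Among the 33 genes, 20 (60.6%) held the half-site TGACG in at least 1 listed promoter, against 19.8% of all genes in the table. The full cyclic AMP response element was found in 4 (12.1%, against 1.77%), the EGR site in 12 (36.4%, against 5.33%), the NF-kB site in 8 (24.2%, against 4.46%) and the CArG box in 3 (9.09%, against 1.62%). The AP-1 site was found in 2 (6.06%, against 7.82%). These shares are descriptions of letters in a short window, genes with several listed starts had more chances of a match, and base composition was not matched.

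The first comparison asks how these genes changed along the erythroid stages. Of the 38 genes that passed the filter on low values in progenitors, 37 fell between Pre MegE and CFU-E and 1, Gadd45a, rose (limma, adjusted p under 0.05), where 76.6% of all 10701 genes tested changed in either direction, 35.1% were lower and 41.5% higher. The fall was at least 2-fold for 29 of them, against 9.74% of all genes. The median change was -1.54 on the log2 scale, against 0.05 for all genes. Maff and Nr4a3 did not pass the filter, and Egr2 passed it only through the Pre MegE arrays. In bulk RNA, fewer cells of an expressing type and less RNA per cell cannot be told apart.

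**Figure D2:**
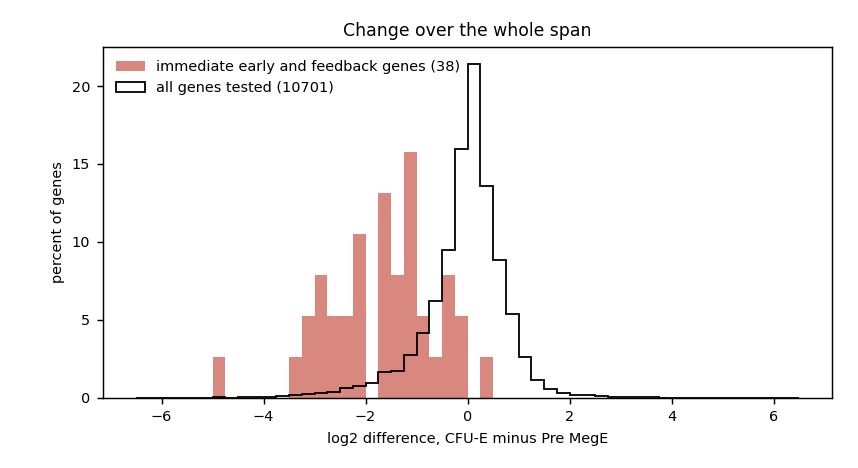
Histogram of the log2 difference CFU-E minus Pre MegE (x axis, mean of the 3 genotypes) in percent of genes (y axis) for the 38 immediate early and feedback genes tested (filled bars) and all 10701 genes tested (outline). The filled bars lie almost wholly below 0, with Rgs1 at -4.83 and Gadd45a at 0.33 at the ends.

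Among the AP-1 and maf factors, which bind DNA as dimers, all 7 tested fell over the span. Atf3, a stress-induced member of the ATF family, fell most. It read 11.80 (KO), 11.85 (Het) and 11.96 (WT) at Pre MegE, 10.43 (KO), 10.49 (Het) and 10.57 (WT) at Pre CFU-E, and 9.01 (KO), 8.86 (Het) and 9.45 (WT) at CFU-E. The arrays of the 3 stages did not overlap, and the span was -2.76 (SE 0.0893, 6.78-fold lower, adjusted p 5.62e-09). Fos, the classical serum-induced partner of Jun proteins, read 12.75 (KO), 12.73 (Het) and 12.86 (WT) at Pre MegE, 11.61 (KO), 11.52 (Het) and 11.70 (WT) at Pre CFU-E, and 10.56 (KO), 10.62 (Het) and 10.82 (WT) at CFU-E. It fell by 1.17 at the first step and by 0.95 at the second, with WT the highest array at every stage. Its relative Fosb fell more (-2.58), and Jun (-1.73), Jund (-1.53), Fosl2 (-1.36) and Junb (-1.17) fell less. Fosl2, a Fos-related partner of Jun proteins, read 8.83 (KO), 8.79 (Het) and 9.31 (WT) at Pre MegE, 8.25 on all 3 arrays at Pre CFU-E, and 7.55 (KO), 7.74 (Het) and 7.55 (WT) at CFU-E, where the KO and WT values were below the array medians. Maff, a small maf factor that lacks an activation domain, was above the array median on 1 of 9 progenitor arrays. It read 7.70 (KO), 7.95 (Het) and 7.69 (WT) at Pre MegE, 7.32 (KO), 7.42 (Het) and 7.42 (WT) at Pre CFU-E, and 6.98 (KO), 6.95 (Het) and 7.04 (WT) at CFU-E. Its values ran in the same order as those of the other factors, near the low end of the range, and it was not tested.

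All 5 tested EGR and NR4A factors fell. Nr4a1, an orphan nuclear receptor induced by antigen receptor and many other signals, read 10.06 (KO), 10.47 (Het) and 10.32 (WT) at Pre MegE, 7.86 (KO), 7.72 (Het) and 7.93 (WT) at Pre CFU-E, and 7.27 (KO), 7.32 (Het) and 7.25 (WT) at CFU-E. Its stages did not overlap, the CFU-E values were below the array medians, and the span was -3.00 (SE 0.0931, 8.01-fold lower, adjusted p 4.22e-09), a size that is uncertain for that reason. Egr1, the zinc finger factor that gives the family its name, fell by 2.38, and Egr2, a related factor, fell by 1.63. Egr2 was above the median on only 3 progenitor arrays, those of Pre MegE. It thus passed the filter only through the stage where it is high, which favoured a call as lower, and the size of its fall is uncertain. Nr4a2, a receptor of the same family as Nr4a1, fell by 1.35, and Egr3, a relative of Egr1, fell by 0.19, the smallest fall of the group. Egr3 read 8.67 (KO), 8.76 (Het) and 8.67 (WT) at Pre MegE, 8.42 (KO), 8.33 (Het) and 8.41 (WT) at Pre CFU-E, and 8.49 (KO), 8.49 (Het) and 8.55 (WT) at CFU-E, so that its lowest stage was Pre CFU-E and all 9 values lay within a narrow band. Nr4a3, the remaining receptor of the family, was below the array median on all 9 progenitor arrays. It read 6.50 (KO), 6.89 (Het) and 6.95 (WT) at Pre MegE, 6.11 (KO), 6.39 (Het) and 6.27 (WT) at Pre CFU-E, and 6.38 (KO), 6.32 (Het) and 6.33 (WT) at CFU-E, values too low to rank.

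All 4 KLF factors and Myc were lower at CFU-E. Klf6, a zinc finger factor of the Krüppel-like family, read 11.86 (KO), 11.89 (Het) and 12.02 (WT) at Pre MegE, 9.99 (KO), 10.12 (Het) and 10.25 (WT) at Pre CFU-E, and 8.69 (KO), 8.52 (Het) and 8.66 (WT) at CFU-E. The stages stood well apart, with a span of -3.30 (SE 0.0635, 9.87-fold lower, adjusted p 3.44e-10). Klf2, known for quiescence in lymphocytes and endothelium, fell by 1.18, Klf4, known for roles in monocytes and pluripotent cells, fell by 1.06, and Klf10, a repressor induced by TGF-beta, fell by 0.86. Klf10 read 10.78 (KO), 10.89 (Het) and 10.95 (WT) at Pre MegE, 10.20 (KO), 10.29 (Het) and 10.29 (WT) at Pre CFU-E, and 9.97 (KO), 10.06 (Het) and 10.003 (WT) at CFU-E, again without overlap of stages. Myc, the growth and proliferation factor, read 13.09 (KO), 13.10 (Het) and 13.02 (WT) at Pre MegE, 13.22 (KO), 13.21 (Het) and 13.20 (WT) at Pre CFU-E, and 12.76 (KO), 12.79 (Het) and 12.75 (WT) at CFU-E. It was thus highest at Pre CFU-E, with a first step of 0.14 (SE 0.0442, adjusted p 0.0199) and a second step of -0.44 (SE 0.0442, adjusted p 4.4e-05). The rise at the first step no longer passed after quantile normalization (0.07, adjusted p 0.17) or without any 1 of KO Pre MegE, Het Pre MegE, WT Pre MegE, KO Pre CFU-E and WT Pre CFU-E (adjusted p 0.0501 to 0.0921).

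All 3 Ier genes fell. Ier3, which is known to modulate survival and ERK signalling, read 9.89 (KO), 10.05 (Het) and 9.90 (WT) at Pre MegE, 8.67 (KO), 8.66 (Het) and 8.67 (WT) at Pre CFU-E, and 7.76 (KO), 7.87 (Het) and 7.87 (WT) at CFU-E. No stage overlapped another, and the span was -2.11 (SE 0.0529, 4.32-fold lower, adjusted p 1.18e-09). Ier2 fell by 1.55 and Ier5 by 0.26.

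All 4 dual-specificity phosphatases fell as well. Dusp2, a nuclear phosphatase of MAP kinases, read 10.95 (KO), 10.87 (Het) and 10.68 (WT) at Pre MegE, 9.04 (KO), 9.02 (Het) and 9.01 (WT) at Pre CFU-E, and 8.13 (KO), 7.87 (Het) and 8.16 (WT) at CFU-E. The stages were again separate, with a span of -2.78 (SE 0.0822, 6.87-fold lower, adjusted p 3.09e-09). Dusp1, which acts on p38 and JNK, fell by 2.03, Dusp6, the cytoplasmic ERK phosphatase, fell by 1.70, and Dusp5, a nuclear ERK phosphatase, fell by 1.06.

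In the group of RNA decay and antiproliferation, all 5 genes fell. Zfp36 (tristetraprolin), which binds AU-rich elements of cytokine messengers, read 11.82 (KO), 11.89 (Het) and 11.84 (WT) at Pre MegE, 10.11 (KO), 10.10 (Het) and 10.24 (WT) at Pre CFU-E, and 8.90 (KO), 8.68 (Het) and 8.83 (WT) at CFU-E. Its span was -3.05 (SE 0.0621, 8.26-fold lower, adjusted p 4.17e-10), without overlap of stages. The paralogue Zfp36l2, known in mice for a role in early erythroid progenitors, read 13.18 (KO), 13.19 (Het) and 13.23 (WT) at Pre MegE, 12.78 (KO), 12.78 (Het) and 12.82 (WT) at Pre CFU-E, and 12.18 (KO), 12.05 (Het) and 11.99 (WT) at CFU-E. It too fell at both steps, by 1.13 in all. The other paralogue, Zfp36l1, fell by 0.31. Btg2 and Btg1, which restrain proliferation and bind the deadenylase complex, fell by 2.39 and by 1.48.

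The NF-kB genes differed widely in size. Rel, a subunit of NF-kB, read 10.86 (KO), 11.07 (Het) and 11.11 (WT) at Pre MegE, 9.17 (KO), 9.44 (Het) and 9.61 (WT) at Pre CFU-E, and 8.41 (KO), 8.28 (Het) and 8.41 (WT) at CFU-E. It fell by 2.65 (SE 0.0817, 6.28-fold lower, adjusted p 4.02e-09), and at Pre MegE and Pre CFU-E the KO array was the lowest. Tnfaip3, the ubiquitin-editing inhibitor A20, fell by 1.21, and Nfkbia, the inhibitor that holds NF-kB in the cytoplasm, fell by 0.23 with no called change at the first step (-0.02, adjusted p 0.79).

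Of the stress genes, Gadd45b, which activates stress kinases, read 10.07 (KO), 10.14 (Het) and 10.29 (WT) at Pre MegE, 9.22 (KO), 9.31 (Het) and 9.24 (WT) at Pre CFU-E, and 8.24 (KO), 7.88 (Het) and 8.14 (WT) at CFU-E. It fell by 2.08 (SE 0.088, 4.23-fold lower, adjusted p 3.1e-08), without overlap of stages. Its paralogue Gadd45a, a p53 target that acts at the G2/M checkpoint, went the other way. Gadd45a read 9.81 (KO), 9.93 (Het) and 9.99 (WT) at Pre MegE, 10.23 (KO), 10.28 (Het) and 10.20 (WT) at Pre CFU-E, and 10.29 (KO), 10.29 (Het) and 10.14 (WT) at CFU-E. The whole of its rise, 0.33 over the span (SE 0.063, adjusted p 0.00103), lay in the first step. Ppp1r15a, the regulatory subunit that directs dephosphorylation of eIF2alpha, fell by 0.61.

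Rgs1, a GTPase-activating protein that dampens chemokine receptors, had the largest change over the span among the 38 genes tested. It read 12.06 (KO), 12.20 (Het) and 12.08 (WT) at Pre MegE, 9.53 (KO), 9.42 (Het) and 9.81 (WT) at Pre CFU-E, and 7.12 (KO), 7.37 (Het) and 7.38 (WT) at CFU-E. The span was -4.83 (SE 0.089, 28.4-fold lower, adjusted p 2.85e-10), and its size is uncertain, since the CFU-E values lay below the array medians. Rgs2, a relative that acts on Gq, fell by 2.78, and the clock gene Per1 fell by 0.83.

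**Figure D3:**
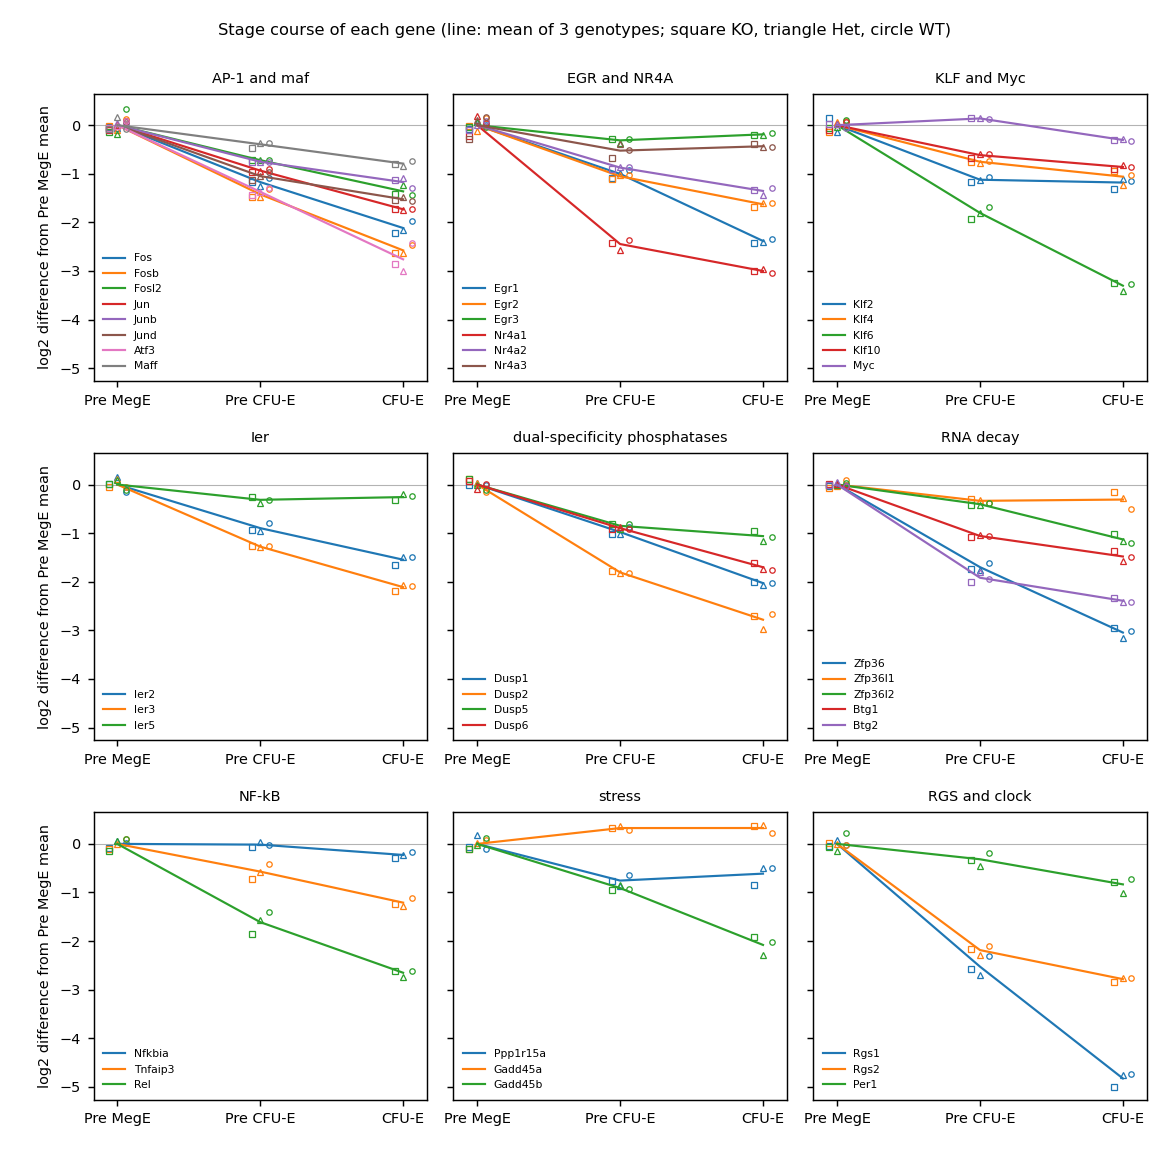
One panel per role group: the log2 difference of each gene from its own mean over the Pre MegE arrays (y axis) at each of the 3 stages (x axis), with lines through the mean of 3 genotypes and symbols for single arrays (square KO, triangle Het, circle WT). Rgs1 ends near -4.83, Gadd45a stays above 0, Myc peaks at Pre CFU-E, and Nr4a1, Btg2 and Rgs2 drop mainly at the first step.

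At the first step, Pre CFU-E minus Pre MegE, 35 of 38 genes were lower and 2 higher, where 66.3% of all genes changed, 29.3% were lower and 37.1% higher, and 17 were at least 2-fold lower, against 4.35% of all genes. At the second step, CFU-E minus Pre CFU-E, 32 were lower and 0 higher at an adjusted p under 0.05, where 44% of all genes changed and 25.3% were lower. At an unadjusted p under 0.05, 33 of 38 changed, and 5470 of all 10701 genes. At least 2-fold lower were 9 of the 38, against 2.21% of all genes. For 30 of the 38 genes the arrays fell at both steps without overlap, against 18.8% of all genes. The second step was not called for Egr3 (0.12), Klf2 (-0.06), Ier5 (0.06), Zfp36l1 (0.03), Ppp1r15a (0.14) and Gadd45a (0.001). Under a rescaling that centred each array on its median, Egr3 passed as a rise at the second step (0.16, adjusted p 0.0335), and the span of Egr3, Ier5, Zfp36l1 and Nfkbia no longer passed, so that 33 genes were lower over the span. Over the span the CFU-E arrays all lay below the Pre MegE arrays for 37 genes, against 36.5% of all genes, and all above them for 1, Gadd45a, against 43%.

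The shape of the course differed between genes. In a contrast added after seeing the data, the second step minus the first, 24 genes passed, where 38.7% of all genes did, and 20 of them fell less or not at all at the second step, where 14.6% of all genes lay on that side. Nr4a1 (1.89, SE 0.161, adjusted p 5.4e-05), Rgs2 (1.59), Btg2 (1.44) and Klf2 (1.06) differed most. Of the span of Nr4a1 81.5% lay in the first step, of Btg2 80.2%, of Rgs2 78.5% and of Klf2 95.1%. The share of Nr4a1 is uncertain, since its Pre CFU-E values lay near the array medians and its CFU-E values below them, which can shrink the second step. The CFU-E values of Rgs2 also lay little above the medians. Egr1 (-0.38, SE 0.0843, adjusted p 0.00744), Zfp36l2 (-0.32) and Myc (-0.58) fell more at the second step, and only 42.1% of the fall of Egr1 and 35.9% of that of Zfp36l2 lay in the first. Gadd45a (-0.33) passed on the same side, since it rose at the first step and was level at the second. Fos (55.3%) and Rgs1 (52.3%) were spread evenly, with no called difference between steps. Without the WT Pre CFU-E array 13 genes passed instead of 24.

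Markers of several other cells moved along the same axis. The summed intensity of the 4 neutrophil markers, on the log2 scale, was 13.69 to 13.95 at Pre MegE, 13.01 to 13.28 at Pre CFU-E and 12.71 to 13.04 at CFU-E. That of the 6 granulocyte and monocyte markers was 14.43 to 14.61, 13.44 to 13.77 and 13.23 to 13.64 over the same stages, and that of the 6 stem and multipotent progenitor markers was 14.03 to 14.12, 12.83 to 12.86 and 12.06 to 12.16. Larger falls were seen in mast cell and NK cell markers. The 4 mast cell markers summed to 12.48 to 12.67, 10.46 to 10.73 and 8.81 to 9.23, carried by Hdc and Cpa3, with Fcer1a below the array median on every array. The 3 NK cell markers summed to 12.55 to 12.62, 10.47 to 10.93 and 9.17 to 9.63, carried by Nkg7, with Ncr1 and Klrb1c below the array median on every array. The 4 megakaryocyte markers with a probe set summed to 12.12 to 12.26, 10.42 to 10.51 and 10.24 to 10.31, so that most of their fall, like that of Nr4a1, lay in the first step. The 5 CD4+ DC markers summed to 10.98 to 11.05, 9.93 to 10.10 and 9.84 to 9.93. Nearly level were the 2 T cell markers with a probe set (8.07 to 8.19 over all stages) and the 3 plasmacytoid DC markers (10.49 to 10.85). The 7 erythroid markers went the other way, with 13.36 to 13.45, 14.33 to 14.41 and 14.86 to 14.92. All 4 neutrophil markers (Ly6g, Camp, Ngp and Retnlg) were above the array median on every progenitor array. The part of these markers in the fall of the early genes was not tested, and neither was induction during handling and sorting.

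The second comparison asks whether loss of Zbtb46 changed these genes in progenitors. With genotypes compared within stages, 0 of 38 genes passed for KO minus WT in limma, where 0.14% of all genes did. An unadjusted p under 0.05 was reached by 6 of 38, and by 614 of all 10701 genes. Zbtb46, the targeted gene, did not pass in this limma fit either (-0.54, SE 0.226, adjusted p 0.847), so an absence of calls says little about the KO effect. Of the 38 differences 27 lay below 0, where 47.6% of all genes did, with a median of -0.05 against 0.003 for all genes. The lowest were Atf3 (-0.25, SE 0.0893, adjusted p 0.74), Rel (-0.23, SE 0.0817, adjusted p 0.721) and Tnfaip3 (-0.21, SE 0.0524, adjusted p 0.393), and the highest was Dusp5 (0.12, SE 0.0566, adjusted p 0.906). For Het minus WT, where 0.0374% of all genes passed, 0 of 38 did. At an unadjusted p under 0.05 there were 5 of 38, and 566 of all 10701 genes. Here too 27 of 38 lay below 0, where 51.1% of all genes did, with a median of -0.03 against -0.001 for all genes. For KO minus Het 0 of 38 passed, as did 0 of all genes. At an unadjusted p under 0.05 there were 2 of 38, and 255 of all 10701 genes. For KO minus Het 20 of 38 lay below 0, where 46.6% of all genes did, with a median of -0.01 against 0.005. The lean below 0 thus lay mainly between the WT arrays and those of KO and Het alike. The summed neutrophil markers were 13.69 in KO and 13.95 in WT at Pre MegE, 13.01 in KO and 13.28 in WT at Pre CFU-E, and 12.71 in KO and 13.04 in WT at CFU-E, and their part in these small differences was not tested. Over all genes the lowest difference was -5.92 for KO minus WT and -5.74 for Het minus WT, but -0.78 for KO minus Het. Sex is not stated, so a difference between the mice, sex included, cannot be told apart from genotype.

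The third comparison sets CD4+ DC against the progenitors. In DC 37 of the 40 genes were higher than the mean of the 3 stages and 3 were lower, where 89.9% of all 11560 genes tested differed, 25.3% were higher and 64.6% lower. The difference was at least 2-fold upward for 30 genes, against 11.7% of all genes, with a median of 1.99 against -0.59 for all genes. After quantile normalization, which brought the median of all genes to -0.10, the split was again 37 higher and 3 lower. Maff and Nr4a3, which did not pass the filter in progenitors, entered this test only through the DC arrays, where they are high. The filter thus favoured their place among the 37. Organ, preparation and cell type cannot be told apart in this comparison, and the 2 DC arrays were assumed to vary like the progenitor arrays.

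The largest of these differences were those of Nr4a3, Nr4a1 and Egr2, while Egr1 (1.72), of the same group, lay below the median of the 40 genes. Nr4a3 read 13.35 in KO DC and 13.01 in WT DC, against 6.11 to 6.95 on the 9 progenitor arrays given above. The difference in the fit was 6.76 (SE 0.122), and its size is uncertain, since all of the progenitor values were below the array medians. The gene passed the filter through the DC arrays alone, so its call was favoured by the filter. Nr4a1 read 13.98 in KO DC and 13.92 in WT DC, against 7.25 to 10.47 in progenitors. Both DC arrays were far above every progenitor array, with a difference of 5.50 (SE 0.0951, 45.2-fold higher, adjusted p 3.09e-12), in which the CFU-E values were below the array medians. Egr2 read 12.37 in KO DC and 12.70 in WT DC, against 8.44 (KO), 8.34 (Het) and 8.62 (WT) at Pre MegE, 7.36 (KO), 7.43 (Het) and 7.43 (WT) at Pre CFU-E, and 6.77 (KO), 6.87 (Het) and 6.87 (WT) at CFU-E. Its 2 groups did not overlap either, with a difference of 4.95 (SE 0.0716, adjusted p 1.23e-12), again against progenitor values mostly below the medians. Rgs2 read 13.20 in KO DC and 13.32 in WT DC, against 10.67 (KO), 10.66 (Het) and 10.62 (WT) at Pre MegE, 8.48 (KO), 8.36 (Het) and 8.55 (WT) at Pre CFU-E, and 7.81 (KO), 7.89 (Het) and 7.90 (WT) at CFU-E. The lowest DC value exceeded the highest progenitor value by 2.53, and the difference was 4.26 (SE 0.0612, 19.1-fold higher, adjusted p 1.18e-12). Klf4 (4.06), Rel (3.76), Fosl2 (3.48), Nr4a2 (3.33), Atf3 (3.31) and Rgs1 (3.21) came next.

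Every role group held genes that were higher in DC. All 8 AP-1 and maf factors were higher, by 0.70 (Jun) to 3.48 (Fosl2, against CFU-E values in part below the medians), with Fos at 1.52 and Fosb at 2.64, and all 6 EGR and NR4A factors by 1.72 (Egr1) to 6.76. Of the KLF factors, Klf2 (2.94), Klf4 and Klf6 (2.56) were higher. All 3 Ier genes were higher, by 0.54 (Ier2) to 1.79 (Ier5), and all 4 phosphatases by 1.04 (Dusp6) to 2.91 (Dusp5). All 5 genes of RNA decay were higher, by 0.35 (Zfp36l2) to 2.91 (Zfp36), with Btg1 at 2.01, Btg2 at 2.80 and Zfp36l1 at 2.08. In the NF-kB group the difference was 0.37 for Nfkbia, 1.34 for Tnfaip3 and 3.76 for Rel. Gadd45b (2.87) and Ppp1r15a (0.61) were higher among the stress genes, and Per1 (0.91) was higher as well. Atf3 read 13.88 in KO DC and 13.81 in WT DC, Klf6 12.71 in KO DC and 12.89 in WT DC, and Zfp36 13.18 in KO DC and 13.22 in WT DC, each above all 9 progenitor arrays given above. Gadd45b read 12.12 in KO DC and 12.03 in WT DC, Rgs1 12.90 in KO DC and 12.85 in WT DC, and Fosl2 11.91 in KO DC and 11.63 in WT DC, again above every progenitor array. Dusp2, with 10.84 in KO DC and 10.72 in WT DC, lay within the range of the Pre MegE arrays.

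Myc, Gadd45a and Klf10 were lower in DC. Myc read 10.57 in KO DC and 10.68 in WT DC, against 12.75 to 13.22 in progenitors (-2.38, SE 0.0533, 5.22-fold lower, adjusted p 1.67e-11). Gadd45a read 8.12 in KO DC and 8.27 in WT DC, against 9.81 to 10.29 in progenitors (-1.91, SE 0.0687, 3.76-fold lower, adjusted p 4.75e-10). Klf10 read 9.48 in KO DC and 8.48 in WT DC, against 9.97 to 10.95 in progenitors (-1.39, SE 0.181, 2.61-fold lower, adjusted p 2.36e-05). For all 3 genes both DC arrays lay below every progenitor array (57.8% of all genes did), while their relatives Gadd45b and Klf4 lay above every one on both DC arrays.

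How far DC stood above depended on the stage. Both DC arrays lay above all 9 progenitor arrays for 30 of 40 genes, against 20.1% of all genes. Against Pre MegE alone, the stage with the highest levels, DC lay above every array for 30 genes, against 23.3% of all genes, and below every array for 6 (Jun, Klf10, Myc, Ier2, Zfp36l2 and Gadd45a), against 67.4%. Jund, Ier3, Dusp2 and Ppp1r15a overlapped with Pre MegE. Zfp36l2 read 13.07 in KO DC and 13.02 in WT DC, against the 13.18 to 13.23 given above for Pre MegE and 11.99 to 12.18 for CFU-E. It was thus above the mean of the stages by 0.35 (SE 0.0591, adjusted p 0.000191) but below Pre MegE. The macrophage markers summed to 13.02 in KO DC and 13.26 in WT DC, against 8.98 to 9.55 in progenitors. For the granulocyte and monocyte markers the sum was 13.92 in KO DC and 13.45 in WT DC, against 13.23 to 14.61. It was carried in DC by Lyz2, Csf1r and Csf3r, while Mpo, Elane and S100a8 were below the array median on both DC arrays. The neutrophil markers summed to 8.53 in KO DC and 8.37 in WT DC, against 12.71 to 13.95. The part of these markers in the DC levels was not tested, and the same holds for handling of the spleen.

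**Figure D4:**
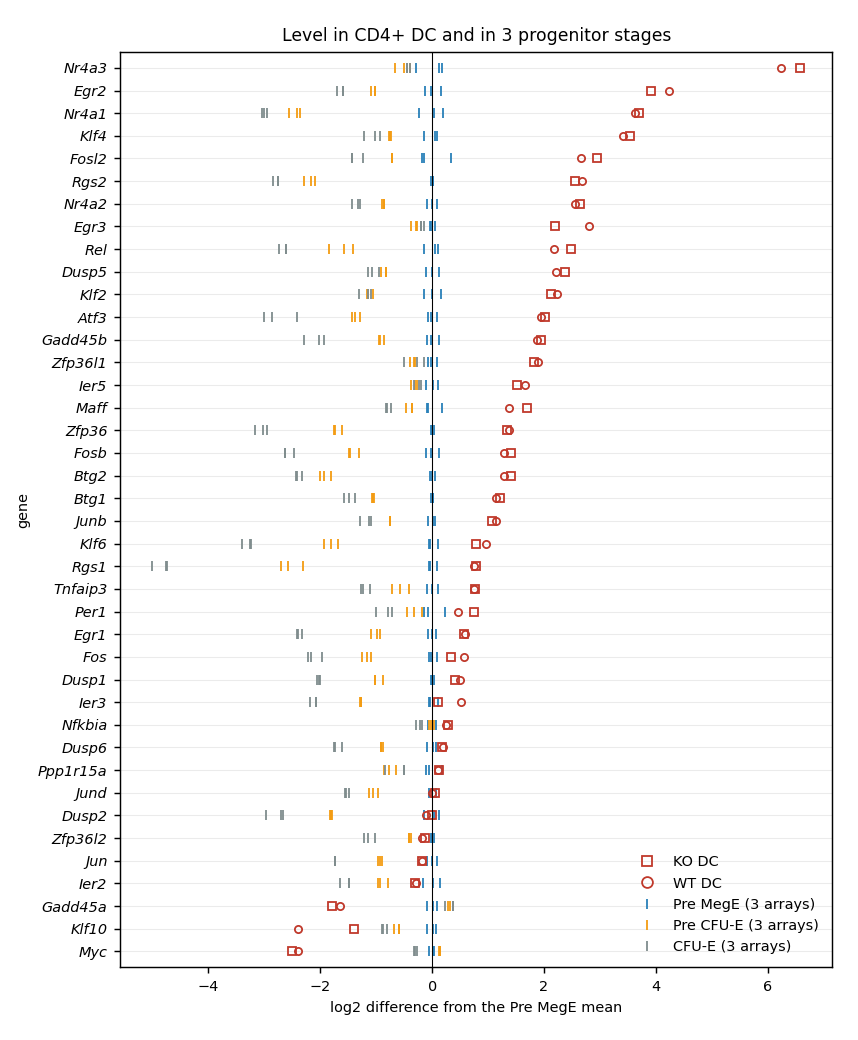
For each gene (rows, ordered by the level in DC), the log2 difference from its own Pre MegE mean (x axis) in KO DC (squares), WT DC (circles) and on the 3 arrays of each progenitor stage (ticks). Nr4a3, Egr2 and Nr4a1 lie farthest to the right in DC, Gadd45a, Klf10 and Myc to the left, and the KO and WT symbols lie apart chiefly for Klf10 and Egr3.

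The fourth comparison asks whether loss of Zbtb46 changed these genes in DC. With 1 array for each genotype there is no replicate check and no p-value, and a gene is named here past a fold of 1.5. Only 2 of 40 genes were past it, 1 higher and 1 lower, where 2.53% of all 10554 genes were (0.758% higher and 1.77% lower). The median size of the 40 differences was 0.11 on the log2 scale, against 0.13 for all genes. Klf10 read 9.48 in the KO array, against 8.48 in the WT array, a difference of 1.01 (2.01-fold higher). Egr3, a zinc finger factor best known for restraint of T cell activation, read 10.90 in the KO array, against 11.50 in the WT array, a difference of -0.60 (1.52-fold lower). After quantile normalization Egr3 was no longer past 1.5-fold (-0.53), nor was it after cyclic loess between the DC arrays (-0.56).

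The next largest differences stayed under 1.5-fold. Upward these were Nr4a3 with 13.35 in KO and 13.01 in WT (0.34), Maff with 9.48 in KO and 9.16 in WT (0.32), and Rel with 13.50 in KO and 13.20 in WT (0.30). Downward they were Ier3 with 10.04 in KO and 10.45 in WT (-0.41), Egr2 with 12.37 in KO and 12.70 in WT (-0.33), and Fos with 13.11 in KO and 13.36 in WT (-0.24). Fosb (13.63 in KO, 13.51 in WT), Jun (13.33 in KO, 13.34 in WT), Egr1 (13.08 in KO, 13.09 in WT) and Dusp1 (13.78 in KO, 13.87 in WT) lay closer together. Among the B cell markers, Ms4a1 read 9.55 in KO DC and 8.57 in WT DC, Cd79a 6.83 in KO DC and 7.52 in WT DC, and Pax5 7.27 in KO DC and 7.21 in WT DC. Of these only Ms4a1 was above the median of the DC arrays, so the higher sum of the 3 in KO (9.99 in KO DC and 9.48 in WT DC) came from that gene, and the part of such cells in these differences was not tested.

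The KO effect in DC was then set against that in progenitors in a fit over all 11 arrays, with the spread of the DC arrays taken from the progenitor arrays. With 1 DC array for each genotype, the SE and p-values here come from the progenitor arrays alone and hold only if DC arrays vary as those do. The difference passed for 2 of 40 genes, 1 higher in DC and 1 lower, where 4.57% of all genes passed (1.56% higher and 3.01% lower). Klf10 differed by 1.1 (SE 0.0951, adjusted p 0.0016), with KO minus WT at 1.01 in DC and -0.09 in progenitors. Egr3 differed by -0.59 (SE 0.105, adjusted p 0.0174), with -0.60 in DC and -0.01 in progenitors, and this no longer passed without the WT Pre CFU-E array (adjusted p 0.0581). Per1 came next (0.45, adjusted p 0.0521). At each of the 3 progenitor stages the KO array of Klf10 was the lowest of the genotypes, while in DC the KO array was the higher. Zbtb46 itself differed by -1.11 in this fit and did not pass.

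**Figure D5:**
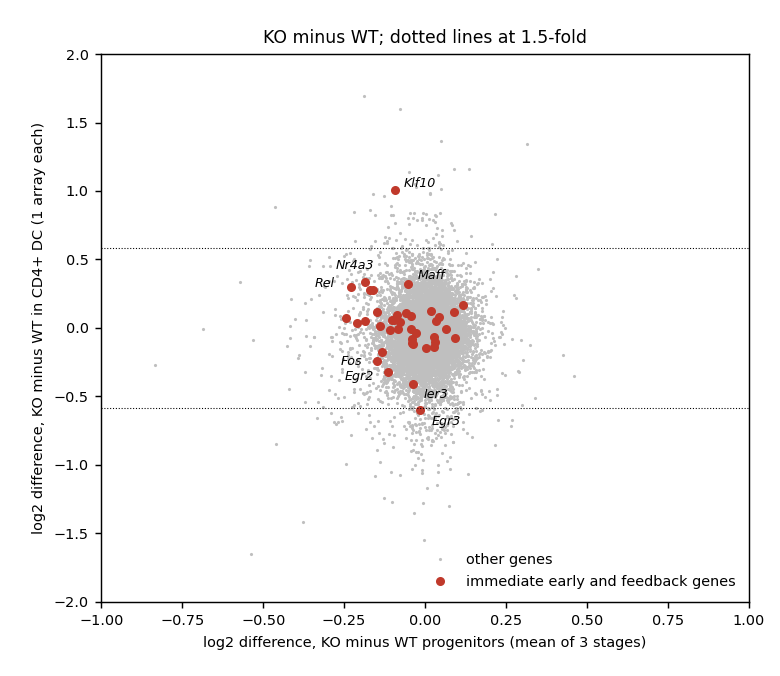
KO minus WT in CD4+ DC (y axis, log2, 1 array each) against KO minus WT in progenitors (x axis, log2, mean of 3 stages) for 40 immediate early and feedback genes (large points) and other genes (small points); dotted lines mark 1.5-fold, and 1 gene lies outside the axes. Klf10 lies above the upper line at 1.01 and Egr3 just below the lower line at -0.60, while all others lie between the lines.

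Related genes outside the 40 were counted in the same fits. Of 23 other early response genes tested, 19 were lower over the span and 1 higher, where 35.1% of all genes were lower and 41.5% higher, with a median of -0.93 (0.05 for all genes). Cd69, an early activation antigen, fell by 3.90, Rhob, a small GTPase, fell by 2.48, Cxcl2, a neutrophil chemokine, fell by 1.995, and Ptgs2, the inducible cyclooxygenase, fell by 1.75, with the CFU-E values of Cxcl2 and Ptgs2 below the array medians. In DC 27 of 30 were higher and 2 lower, where 25.3% of all genes were higher and 64.6% lower. Il1b, an inflammatory cytokine, read 13.69 in KO DC and 13.61 in WT DC, against 6.69 to 6.77 in progenitors, and Ptgs2 read 13.59 in KO DC and 13.64 in WT DC, against 6.44 to 8.67. The progenitor values of Il1b were all below the array medians, as were those of Ptgs2 after Pre MegE, so the size of these differences is uncertain. Arc, Ccl4, Ccn2, Il1b, Nfil3, Plk2 and Trib1 did not pass the filter in progenitors and entered this test only through the DC arrays. The filter thus favoured their calls as higher. Of 18 genes of the ERK pathway and its feedback, 13 were lower over the span and 2 higher (35.1% and 41.5% of all genes), with Elk3, an ETS partner of SRF, at -2.13 and the phosphatase Dusp4 at -1.64 (with CFU-E values below the array medians), and Spry4, a feedback inhibitor, at 0.95. In DC 8 of these 18 were higher and 8 lower (25.3% and 64.6% of all genes).

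Of 15 NF-kB pathway genes, 10 were lower over the span and 2 higher (35.1% and 41.5% of all genes), with the inhibitor Nfkbie at -1.69 and Birc3, a ubiquitin ligase of the pathway, at -1.39. In DC 13 of 16 were higher and 3 lower (25.3% and 64.6% of all genes). The adaptor Traf1 read 12.01 in KO DC and 11.90 in WT DC, against 5.69 to 5.90 in progenitors. These progenitor values were all below the array medians, so Traf1 passed the filter only through the DC arrays. Further AP-1, KLF and maf family members, listed with some Egr, Btg and Gadd45 relatives, were divided over the span. Of 18 tested, 5 were higher and 7 lower (41.5% and 35.1% of all genes), with a median of -0.01 (0.05 for all genes). The list does not separate early response genes from others. Klf1, the erythroid member of the KLF family, rose by 0.80 over the span, and Klf7 fell by 1.04. In DC 8 of 20 were higher and 8 lower (25.3% and 64.6% of all genes). For KO minus WT in progenitors, 0 genes of any of these lists passed.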

How the data were processed

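RNA of 11 sorted samples was measured on 1-colour Affymetrix arrays. The deposited values are linear intensities, 1 per probe set and array, made by the authors with RMA per the submitters' processing notes; no source used here gives its version or says whether the cell types were scaled together. The log2 of each deposited intensity was taken without further scaling. Of 29674 probe sets, 21780 had 1 gene symbol in the platform annotation, 1618 had several and 6276 were not listed. Where a gene had several probe sets, the one with the highest mean was used. Genes were fitted where at least 2 arrays reached the array median, so a gene could enter only through the group where it is high.

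Linear models were fitted in R 4.3.3 by limma 3.58.1 (two-sided, with eBayes), with Benjamini-Hochberg adjustment over all genes tested, and the call threshold was an adjusted p of 0.05. Progenitor stages and genotypes were fitted together over the 9 progenitor arrays (4 residual degrees of freedom, median residual SD 0.0705). DC were compared with progenitors over 11 arrays with genotype as a block (5 residual degrees of freedom). KO minus WT in DC is a difference of 2 arrays. The fit was tested on simulated data with known differences. Promoters came from RefSeq (GRCm38.p6).

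The 40 genes, the related lists and the marker lists were chosen with earlier results of these data known, so counts over them are descriptions. Values on every array are given for the largest fall in each role group, for genes that rose, for the 4 largest KO differences in DC each way, for the 4 highest and lowest in DC against progenitors, and for genes not above the medians in progenitors. Other members were given by their changes or ranges.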

Additional observations from a re-analysis of the deposited data

Results flagged for a closer look

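The KO minus WT difference of Klf10 was 1.01 in DC and -0.09 in progenitors, and the test of the difference between cell types gave 1.1 (limma, SE 0.0951, adjusted p 0.0016). It passed without any 1 of the 9 progenitor arrays, but each DC value is 1 array, so the SE and p come from the spread of the progenitor arrays alone, here and for Egr3.

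The KO minus WT difference of Egr3 was -0.60 in DC and -0.01 in progenitors, a difference between cell types of -0.59 (limma, SE 0.105, adjusted p 0.0174). Without the WT Pre CFU-E array it no longer passed (-0.60, adjusted p 0.0581).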

How the results depend on the processing

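Leaving out each array in turn, the number of the 40 genes called ranged from 36 to 37 at the first step, 30 to 32 at the second, 37 to 38 over the span, 39 to 40 for DC minus progenitors, and 0 to 0 for KO minus WT in progenitors. For the test of the KO effect between DC and progenitors it ranged from 1 (without WT Pre CFU-E) to 5 (without KO CFU-E), against 2. The second step minus the first called 13 (without WT Pre CFU-E) to 26 genes (without KO CFU-E), against 24. The test of the KO effect called 5 genes after quantile normalization (1135 of all genes, against 528) and 10 with array weights (3653), whose estimation stopped before its tolerance. Past 1.5-fold in the DC pair, 1 gene remained after quantile normalization (468 of all genes, against 267), 1 after cyclic loess and 1 at a fold of 2, in each case Klf10. With Pre MegE alone as the reference, 31 genes were higher and 6 lower, among them Jun (-0.19), Ier2 (-0.27) and Zfp36l2 (-0.16). Dusp2 (-0.08, adjusted p 0.435), Jund (0.02, adjusted p 0.77) and Ppp1r15a (0.15, adjusted p 0.227) no longer passed in limma. The cause of these changes was not tested. Centring moved the median of all genes over the span to 0.17, against 0.05. No paired analysis was possible because the labels carry no replicate numbers beyond 1 array for each group; genotype was the block, and without it the stage counts were 37, 32 and 38. Signal near the array median limits Maff, Nr4a3, Egr2, Nr4a1, Rgs1 and Fosl2 in progenitors.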

Other observations

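Heat shock chaperones, which share induction by stress with the early genes, were described apart because few of them fell over the span. Over the span 9 of 16 tested were higher in CFU-E and 1 lower (limma, adjusted p under 0.05), where 41.5% of all genes were higher and 35.1% lower. Hsph1, a cochaperone of Hsp70, was 1.19 higher (SE 0.0754), and the mitochondrial pair Hspe1 and Hspd1 was 0.87 and 0.75 higher. Hspa1a, the inducible Hsp70, changed by 0.07 (adjusted p 0.467). In DC 8 of 17 were higher than in progenitors and 8 lower (25.3% and 64.6% of all genes), with Hspa1a at 3.05 and Hspd1 at -1.21.

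Between the DC arrays, 4 of 17 chaperone genes were past 1.5-fold, all higher in KO, where 0.758% of all genes were past it upward. Hspb1, a small heat shock protein, read 9.59 in KO and 8.58 in WT (1.01), Bag3, a cochaperone, read 11.60 in KO and 10.63 in WT (0.96), Hspd1 read 12.16 in KO and 11.52 in WT (0.64), and Dnaja1, an Hsp40, read 12.80 in KO and 12.20 in WT (0.60). The median of the list was 0.37, against -0.05 for all genes. In the test of the KO effect between DC and progenitors 6 of 17 passed, all higher, where 1.56% of all genes did.

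Among 30 other early response genes, 3 were past 1.5-fold in the DC pair, all higher in KO, where 0.758% of all genes were past it upward and 2.53% in either direction. The median of this list was 0.10, against -0.05 for all genes. For the KO effect in DC minus that in progenitors it was 0.11, against -0.05 for all genes. Phlda1 read 8.21 in KO and 7.36 in WT (0.85), Nfil3, a basic leucine zipper factor of DC development, read 11.20 in KO and 10.45 in WT (0.75), and Cebpb, a myeloid factor, read 9.67 in KO and 9.01 in WT (0.66). The WT value of Phlda1 lay below the median of its array (7.61). Phlda1 was thus counted only through the KO array, where it is high, and the size of its difference is uncertain. Each DC value is 1 array, so a difference between mice, sorts or preparations cannot be told apart from genotype.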
